A study of Rattus norvegicus with 12 samples.

Results

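The subject is 10 genes of the glutathione S-transferase family in rat L6 myotubes: *Gsta1*, *Gsta2*, *Gsta4* and *Gsta5* of the alpha class, *Gstm1* and *Gstm2* of the mu class, *Gstp1* of the pi class, and the membrane-bound *Mgst1*, *Mgst2* and *Mgst3*. They were found by matching the RefSeq accession of each array probe to these rat symbols, which gave 13 probes. The arrays held probes for 16575 named genes, of which 10737 could be tested, and the 10 transferase genes were among those tested.

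Glutathione S-transferases join the tripeptide glutathione to electrophilic compounds, among them drugs, plant chemicals and the aldehydes that form when lipids are oxidised. The soluble enzymes are grouped in classes by sequence, and the microsomal enzymes belong to a separate family of membrane proteins, some of which also reduce lipid peroxides or act in the synthesis of leukotrienes. Conjugates leave the cell through transporters and are trimmed outside it. Several of these genes are known targets of the transcription factor Nrf2, and the liver is the tissue best known for high amounts of the alpha class.

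L6 is a rat skeletal muscle line whose myoblasts fuse into myotubes when serum is lowered. Per the labels, cells had differentiated for 6 days, a number for which the study's article differs, and were then kept for 24 h with DMSO alone as the control, or with 60 µM GR24, 60 µM pinosylvin or 60 µM resveratrol in DMSO. GR24 is a synthetic analog of the plant hormones called strigolactones. Pinosylvin and resveratrol are plant stilbenes, and resveratrol carries an additional hydroxyl group on the ring that is unsubstituted in pinosylvin. Each of the 4 groups had 3 arrays, 1 from each of 3 independent experiments on a single batch of cells, so that p-values measure the spread between those experiments.

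The arrays were of 1 colour, with 58717 spots other than controls, and 58.0% to 64.3% of the spots on an array were well above background. No spot was saturated. A log2 level is the log2 of the processed signal of a probe after subtraction of the 75th percentile of its array, so that 0 stands for that percentile. Signals of different probes are not on 1 scale, so levels were compared between groups for 1 probe at a time, and sums over marker probes between arrays. Where a gene had several probes, its brightest probe on average stands for it. Differences were tested with limma over 24279 probes in 1 fit of all 12 arrays, and a probe was called higher or lower at a Benjamini-Hochberg adjusted p under 0.05. The number of arrays limits the precision of every value.

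The cells carried the markers of myotubes. All 16 myotube markers with a probe were well above background on each of the 12 arrays, and *Mylpf*, *Mymk* and *Ttn* had no probe. Of 5 hepatocyte markers at most 1 was well above background on any array, and of 2 adipocyte markers with a probe also at most 1, so markers of a liver cell type rich in these enzymes were at or near background. The 6 fibroblast markers, collagens among them, were well above background throughout. Markers of dividing or undifferentiated myoblasts were well above background for 8 or 9 of 9 with a probe, *Id3* being the one that was missing on slide 1. Within these lists the probes of *Myh3*, *Col1a2* and *Cdk1* gave the highest signals, which does not rank the RNAs, since signal also depends on the probe.

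GR24 moved all 10 transferase genes. Compared with the control, *Gsta1*, *Gsta2*, *Gsta5*, *Gstm1*, *Gstp1*, *Mgst1* and *Mgst2* rose, and *Gsta4*, *Gstm2* and *Mgst3* fell. In the same comparison 31.5% of all tested probes were called higher and 25.5% lower, so a call by itself is common. The median log2 fold change was 2.09 over the 10 genes and 0.027 over all tested probes. The 10 were chosen with earlier results of these data known, so this and later comparisons of their medians are descriptions only. The 11 other soluble transferases tested had a median of 0.21. For each of the 7 genes that rose, the 3 GR24 arrays lay above the 3 control arrays, and for each of the 3 that fell they lay below. How many of all tested probes were separated in this way was not counted, so this separation only describes the 10 genes. All 10 kept their direction on both slides and under each scaling that was tried. In bulk RNA, fewer cells of a type and less RNA per cell cannot be told apart.

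The largest increase was that of *Gsta1*, an alpha class enzyme, read by probe A_44_P1084181. Its log2 level was 0.78, 0.83 and 0.73 on the control arrays of replicates 1, 2 and 3 and 5.43, 5.45 and 5.19 on the GR24 arrays. With pinosylvin it was 3.69, 3.47 and 3.55, and with resveratrol 4.27, 4.06 and 4.06. The 4 groups therefore did not overlap, with the control lowest, the stilbenes between and GR24 highest. GR24 raised the signal 23.9-fold (95% confidence interval 20.6 to 27.6, adjusted p = 2.4e-10). The other *Gsta1* probe gave 24.1-fold, and only 2 of the 24279 probes had larger log2 fold changes than these 2 probes.

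*Gsta5*, another alpha class gene, read by probe A_64_P080566, started from a low signal. Its log2 level was -2.95, -2.95 and -2.80 in the control and 0.93, 1.03 and 1.11 with GR24, the GR24 arrays being above those of all other groups. It was -2.37, -2.56 and -1.74 with pinosylvin and -1.15, -1.09 and -0.75 with resveratrol. The increase with GR24 was 15.2-fold (95% confidence interval 11.4 to 20.2, adjusted p = 4.06e-08). Its log2 fold change of 3.92 became 3.23, below that interval, under normexp, another background correction, with scaling to the 75th percentile. The study's article lists the transcript of this probe under the name *Gsta2*, and the gene named *Gsta2* here is read by a probe for another transcript.

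*Gsta2*, the alpha class gene next to *Gsta5* on chromosome 8, was at or near background in the control and with pinosylvin, and its values depend most on the processing. Its probe A_43_P13967 was well above background on 1 of 3 control arrays, on 0 of 3 pinosylvin arrays and on all 3 arrays of GR24 and of resveratrol. The log2 level was -6.20, -6.16 and -4.98 in the control, -1.97, -1.85 and -2.14 with GR24, -6.62, -7.11 and -6.78 with pinosylvin and -4.14, -4.42 and -4.45 with resveratrol. Control replicate 3, the array on slide 2, stood apart from the other 2 control arrays. On slide 2, where the control array was well above background, the log2 fold change with GR24 was 2.84. The fit of all arrays gave 3.80 (SE 0.28, adjusted p = 1.21e-06) and slide 1 gave 4.27, sizes set against control arrays of slide 1 that were not well above background. They also depended on the background correction. The deposited table gave 2.30 and normexp with scaling to the 75th percentile gave 1.58, both with GR24 higher.

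*Gstp1*, the pi class enzyme, was read by a probe printed in 10 spots, A_64_P170600. Its log2 level was 4.62, 4.76 and 4.50 in the control, 6.05, 6.07 and 5.96 with pinosylvin, 6.64, 6.48 and 6.49 with resveratrol and 6.99, 7.03 and 6.92 with GR24. As for *Gsta1*, the groups formed 4 separate steps. GR24 raised it 5.12-fold (95% confidence interval 4.53 to 5.78, adjusted p = 4.05e-09). A second probe gave 5.58-fold. The 10 spots of A_64_P170600 on 1 array had a median SD of 0.052 in log2, which covers noise within an array only. Between the 3 arrays of a group the SD went from 0.055 with pinosylvin to 0.128 in the control.

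Among the membrane-bound enzymes, *Mgst1* and *Mgst2* rose while *Mgst3* fell. *Mgst1* encodes an enzyme of the endoplasmic reticulum and the outer mitochondrial membrane. Its log2 level was 1.12, 1.14 and 1.01 in the control and 3.37, 3.50 and 3.15 with GR24, a 4.76-fold increase (95% confidence interval 4.04 to 5.61, adjusted p = 4.06e-08). *Mgst2*, whose product can conjugate glutathione to a leukotriene precursor, had log2 levels of 3.21, 3.16 and 3.05 in the control and 5.11, 5.21 and 4.87 with GR24. That was a 3.79-fold increase (95% confidence interval 3.26 to 4.41, adjusted p = 7.09e-08).

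*Mgst3*, a relative of *Mgst2* with peroxidase activity, had the largest decrease. Its log2 level was 3.18, 3.16 and 3.18 in the control and 1.68, 1.71 and 1.65 with GR24. The stilbene arrays lay between, at 2.49, 2.50 and 2.29 with pinosylvin and at 2.62, 2.84 and 2.59 with resveratrol. GR24 thus lowered it 2.81-fold (log2 fold change -1.49, 95% confidence interval -1.67 to -1.31, adjusted p = 1.15e-07). The 10 spots of its probe A_44_P269544 had a median SD of 0.057 on an array.

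*Gsta4*, an alpha class enzyme known for its activity on aldehydes of lipid peroxidation, fell with GR24 although *Gsta1*, *Gsta2* and *Gsta5* of its class rose. Its log2 level was 0.74, 0.89 and 0.75 in the control and between -0.0070 and 0.0075 on the 3 GR24 arrays. The decrease was 1.73-fold (log2 fold change -0.79, 95% confidence interval -0.95 to -0.64, adjusted p = 4.13e-06). The mu class genes *Gstm1* and *Gstm2* also moved in opposite directions. Among other tested mu class genes *Gstm5* fell by 0.33 in log2, and *Gstm4*, *Gstm6l* and *Gstm7* did not pass the threshold. *Gstm1* was at -0.57 to -0.33 in the control and at 0.19 to 0.38 with GR24, a 1.71-fold increase (95% confidence interval 1.46 to 2.01, adjusted p = 8.67e-05). *Gstm2* was at 1.73 to 2.06 in the control and at 1.28 to 1.44 with GR24, a 1.49-fold decrease (log2 fold change -0.57, 95% confidence interval -0.84 to -0.31, adjusted p = 0.00195).

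**Figure D1:**
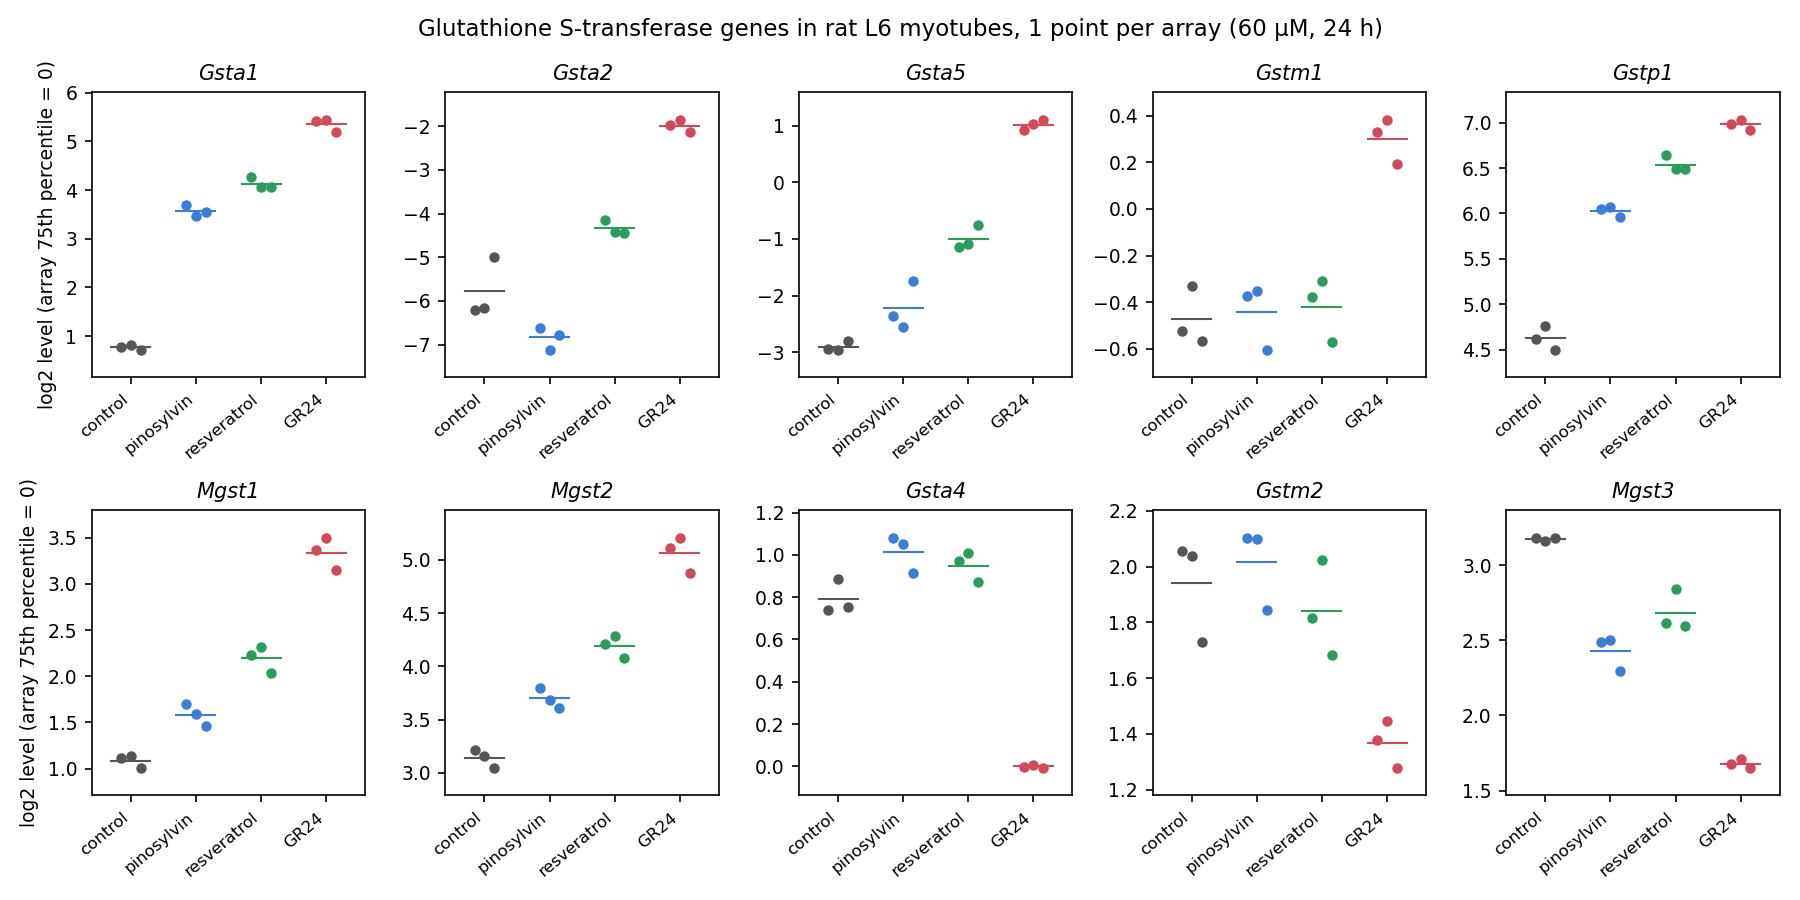
Log2 level of each transferase gene on each array, with 0 at the 75th percentile of the array and an axis of its own for each gene. Points are single arrays, 3 per group in the order of their replicate numbers, lines are group means, and the last 3 panels hold the genes that fell with GR24, after the 7 that rose.

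Genes that moved in opposite directions lay side by side in the genome. In the gene table of the rat assembly GRCr8, *Gsta4*, *Gsta5* and *Gsta2* follow each other on chromosome 8 with no other protein-coding gene between them, and *Gstm2* and *Gstm1* are neighbours on chromosome 2. With GR24 *Gsta4* and *Gstm2* fell, and the neighbours *Gsta5*, *Gsta2* and *Gstm1* rose. The sequences of the probes were not used here, so whether a probe also binds RNA of a related transferase was not tested.

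Other properties of the cells changed in the same comparison. With GR24, 13 of 16 tested myotube markers were called lower and 0 higher, with a median log2 fold change of -1.30, among them the transcription factor gene *Myog* at -5.83 and the actin gene *Acta1* at -3.88, where 25.5% of all tested probes were called lower. Between pinosylvin and resveratrol, 11 of the 16 were higher with pinosylvin, beside 7.68% of all tested probes. Of 8 tested markers of dividing or undifferentiated myoblasts 5 were lower, beside 6.85%. Against the control, 3 of the 16 myotube markers were higher with pinosylvin and 0 lower. Of the 8 myoblast markers 1 was higher and 5 were lower, beside 8.28% and 8.27% of all tested probes. With resveratrol 0 of the 16 were higher than in the control and 7 lower. Of the 8 myoblast markers 1 was higher and 3 were lower, beside 7.99% and 8.99%. Summed over the 16 markers, the signal relative to the 75th percentile of the array was 1336 to 1519 in the control, 586 to 616 with GR24, 1502 to 1591 with pinosylvin and 1158 to 1239 with resveratrol. For the 9 markers of dividing or undifferentiated myoblasts, the sum was 58.7 to 64.1 in the control, 12.2 to 13.3 with GR24, 24.1 to 25.8 with pinosylvin and 36.2 to 39.8 with resveratrol. Probes with a high signal carry such a sum, and with GR24 4 of 8 tested were called lower, *Cdk1* at -2.81 and *Mki67* at -2.83 among them, while *Id2* at 1.22 and *Hes1* at 0.65 were called higher. The fibroblast markers summed to 488 to 530 in the control and 284 to 302 with GR24, with 5 of 6 called lower and 1 higher. The part of these shifts in the transferase values was not tested.

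Pinosylvin moved fewer of the genes. *Gsta1*, *Gsta5*, *Gstp1*, *Mgst1* and *Mgst2* were called higher than in the control and *Gsta2* and *Mgst3* lower, against 8.28% of all tested probes called higher and 8.27% lower. The median log2 fold change of the 10 genes was 0.36, and that of all tested probes was 0.054. *Gsta1* rose 6.93-fold (95% confidence interval 5.99 to 8.01, adjusted p = 1.8e-07), and its 2 probes had the largest log2 fold changes of the 24279. *Gstp1* rose 2.64-fold (95% confidence interval 2.34 to 2.99, adjusted p = 1.63e-06), *Mgst2* 1.47-fold (adjusted p = 0.00331) and *Mgst1* 1.41-fold (adjusted p = 0.00983). *Mgst3* fell 1.68-fold (log2 fold change -0.75, 95% confidence interval -0.93 to -0.56, adjusted p = 0.000152).

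The remaining calls with pinosylvin were not stable. *Gsta5* was called higher (adjusted p = 0.0308) at 0.68 in log2, with an SE of 0.19, and it was at 0.49 within slide 1 and 1.06 within slide 2. Its call was lost without control replicate 1, 2 or 3 (adjusted p = 0.0876, 0.0786 and 0.0551), with no filter on dim probes (0.0859) and with only the 6 arrays compared (0.104), and without pinosylvin replicate 3 the log2 fold change was 0.44. *Gsta2* was called lower (adjusted p = 0.0293), but with pinosylvin 0 of 3 arrays were well above background, and in the control 1 of 3, so no size is given. That call was lost in 7 other settings, with adjusted p = 0.0559 to 0.164, among them those without pinosylvin replicate 2 or 3 (0.106 and 0.0614).

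For *Gstm1*, *Gstm2* and *Gsta4* no change with pinosylvin passed the threshold. The log2 fold change of *Gstm1* was 0.03 (95% confidence interval -0.20 to 0.26), that of *Gstm2* was 0.07 (-0.19 to 0.34) and that of *Gsta4* was 0.22 (0.07 to 0.38, adjusted p = 0.0563). With the replicate number as a block *Gsta4* was called higher with pinosylvin, at the same log2 fold change and an adjusted p of 0.0165. The block also raised the number of probes called, from 2010 to 3954 higher and from 2009 to 2993 lower.

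Resveratrol raised 6 of the genes, *Gsta1*, *Gsta2*, *Gsta5*, *Gstp1*, *Mgst1* and *Mgst2*, and lowered 1, *Mgst3*. Of all tested probes 7.99% were called higher and 8.99% lower, with a median log2 fold change of 0.010, against 1.08 for the 10 genes. With the replicate block those probes numbered 3419 higher and 3350 lower in place of 1941 and 2182. *Gsta1* rose 10.2-fold (95% confidence interval 8.83 to 11.8, adjusted p = 3.23e-08), and its probes again had the 2 largest log2 fold changes of all tested probes. *Gstp1* rose 3.76-fold (adjusted p = 5.6e-07) and *Gsta5* 3.75-fold (adjusted p = 9.31e-05). *Mgst1* rose 2.16-fold (adjusted p = 8.5e-05), *Mgst2* rose 2.07-fold (adjusted p = 7.48e-05) and *Mgst3* fell 1.40-fold (adjusted p = 0.00238).

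With resveratrol *Gsta2* was called higher (adjusted p = 0.00582), and on slide 2, where its control array was well above background, the log2 fold change was 0.53. The fit of all arrays gave 1.45 (SE 0.28) and slide 1 gave 1.90, again against control arrays that were not well above background. The deposited table gave 0.61 and normexp with scaling to the 75th percentile gave 0.25, both still called. The other 3 genes did not pass the threshold with resveratrol. Their log2 fold changes were 0.05 for *Gstm1* (95% confidence interval -0.18 to 0.28), -0.10 for *Gstm2* (-0.37 to 0.17) and 0.16 for *Gsta4* (0.00098 to 0.31, adjusted p = 0.168).

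**Figure D2:**
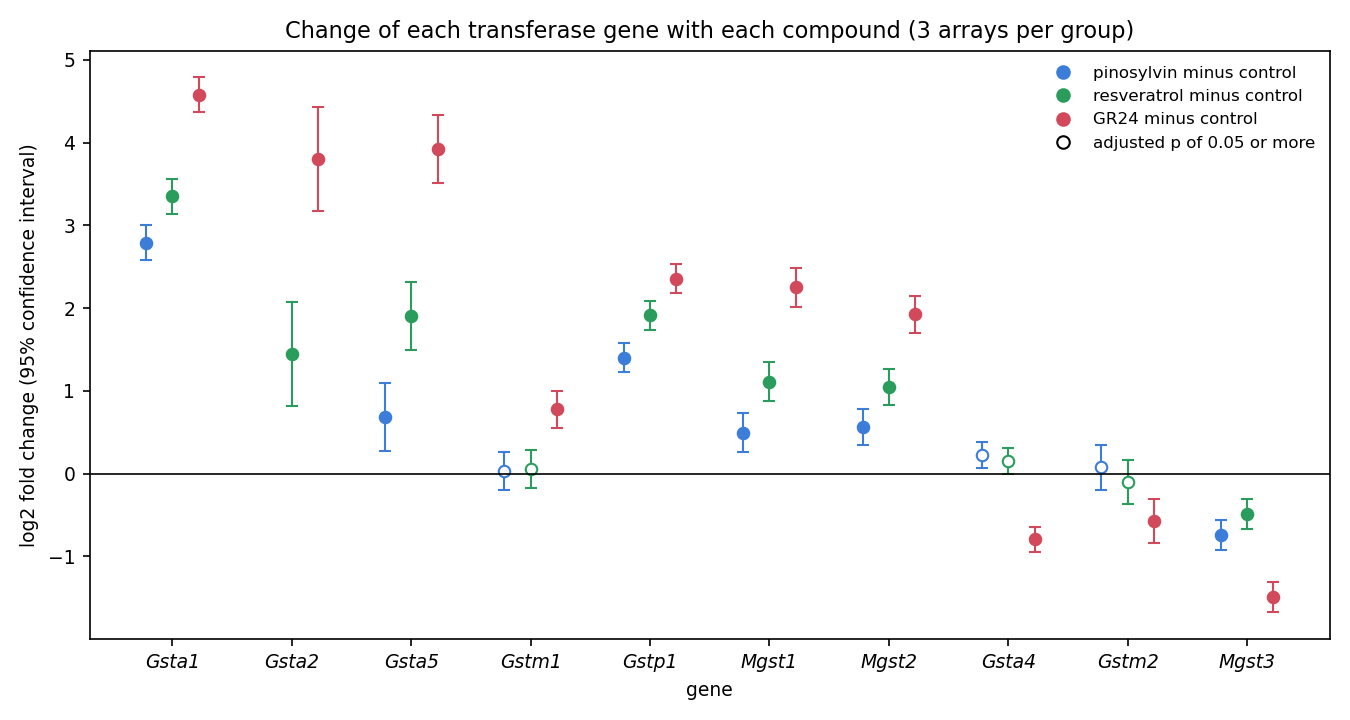
Log2 fold change of each transferase gene with each compound against the control, with 95% confidence intervals from the limma fit of 12 arrays (for *Gsta2*, against a control well above background on 1 of 3 arrays). *Gsta1* has the largest increase of the 10 with each compound, filled points passed an adjusted p of 0.05, and *Gsta2* with pinosylvin is not drawn, since no array of that group was well above background.

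The comparisons with the control share its 3 arrays, so the compounds were also compared with each other at the same dose and time, in 3 pairs. Each difference was adjusted over all tested probes. GR24 differed from pinosylvin in all 10 genes, with the same 7 higher and the same 3 lower, where 29.6% of all tested probes were called higher and 26.8% lower. GR24 also differed from resveratrol in all 10, again with 7 higher and 3 lower, against 27.4% and 23.9% of probes. By the brightest probe of each gene, the smallest of these differences was that of *Gstp1* between GR24 and resveratrol, 1.36-fold (95% confidence interval 1.20 to 1.54, adjusted p = 0.000824). The second *Gstp1* probe gave 1.45-fold, more than the 1.39-fold of *Gstm2*, so this rank depends on the probe.

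The increases with GR24 exceeded those with the stilbenes to a different extent from gene to gene. *Gsta1* was 3.45-fold higher with GR24 than with pinosylvin (95% confidence interval 2.98 to 3.99) and 2.34-fold higher than with resveratrol (2.02 to 2.70). *Gsta5* was 9.47-fold higher than with pinosylvin (7.12 to 12.6) and 4.05-fold higher than with resveratrol (3.04 to 5.39). *Mgst1* was 3.38-fold higher than with pinosylvin (2.87 to 3.98) and 2.21-fold higher than with resveratrol (1.87 to 2.60). *Gsta2* was 5.09-fold higher with GR24 than with resveratrol (3.29 to 7.87), but the log2 difference of 2.35 became 1.69 in the deposited table and 1.33 under normexp with scaling to the 75th percentile. Against pinosylvin it was at least 11.95-fold higher, where the bound sets the GR24 mean against the higher, on each pinosylvin array, of the signal of the probe and the lowest signal well above background. That bound holds for this background correction only, and with normexp and the 75th percentile the log2 fold change was 1.76.

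*Gsta4*, *Gstm1* and *Gstm2*, which in the fit used here passed the threshold with neither stilbene against the control, also differed between GR24 and both stilbenes. *Gsta4* was 2.02-fold lower with GR24 than with pinosylvin (adjusted p = 7.88e-07) and 1.93-fold lower than with resveratrol (adjusted p = 1.6e-06). *Gstm1* was 1.68-fold higher than with pinosylvin and 1.65-fold higher than with resveratrol (adjusted p = 0.000125 and 0.000182). *Gstm2* was 1.57-fold lower than with pinosylvin and 1.39-fold lower than with resveratrol (adjusted p = 0.000933 and 0.00706).

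Between the stilbenes, which differ by the hydroxyl group, 6 genes were lower with pinosylvin than with resveratrol and 0 were higher, where 6.85% of all tested probes were called lower and 7.68% higher. With the replicate block the probe counts were 2816 lower and 3507 higher in place of 1664 and 1864. The 6 were *Gsta1*, *Gsta2*, *Gsta5*, *Gstp1*, *Mgst1* and *Mgst2*, the genes that rose with resveratrol. *Gsta5* was 2.34-fold lower with pinosylvin (log2 difference -1.23, 95% confidence interval -1.64 to -0.81, adjusted p = 0.00176). *Gsta1*, *Gstp1*, *Mgst1* and *Mgst2* were 1.40-fold to 1.53-fold lower, with adjusted p from 0.00202 to 0.00811. *Gsta2* was called lower as well (adjusted p = 0.000304). Its size was set by the background correction, with a bound of at least 2.35-fold under the one used here, and a log2 difference of -1.02 in the deposited table and -0.42 under normexp with scaling to the 75th percentile.

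For the other 4 genes the difference between the stilbenes did not pass the threshold. *Mgst3* was -0.26 (95% confidence interval -0.44 to -0.07, adjusted p = 0.0636), and its 3 pinosylvin arrays lay below the 3 resveratrol arrays. With the replicate block it was called lower with pinosylvin (adjusted p = 0.025). The log2 difference was 0.06 for *Gsta4* (-0.09 to 0.22), -0.02 for *Gstm1* (-0.25 to 0.21) and 0.18 for *Gstm2* (-0.09 to 0.44).

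Ordered by group mean, *Gsta1*, *Gsta5*, *Gstp1*, *Mgst1* and *Mgst2* rose in the steps control, pinosylvin, resveratrol and GR24, with each step called. The step of *Gsta5* from control to pinosylvin was the one of these that was not stable, its call being lost without any 1 of the control arrays. *Gsta2* had GR24 highest and resveratrol next, and its order of control and pinosylvin rests on arrays of which 1 of 6 was well above background. *Gstm1* had GR24 highest, and no pair among the other 3 groups differed past the threshold. *Gsta4* and *Gstm2* had GR24 lowest, and no pair among the other 3 groups differed past the threshold in the fit used here, but *Gsta4* was called higher with pinosylvin than in the control in 10 alternatives (adjusted p = 0.0133 to 0.0492), the replicate block among them (0.0165). *Mgst3* had the reverse ends, with GR24 lowest and control highest. Its middle groups, pinosylvin and resveratrol, did not differ past the threshold in the fit used here but did in 7 alternatives (adjusted p = 0.0221 to 0.0492), the replicate block among them (0.025).

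Further probes read the same changes. *Gsta1*, *Gstm1* and *Gstp1* each had a second probe, with the same call in each of the 6 comparisons. The log2 fold changes of the 2 probes differed by at most 0.048 for *Gsta1*, 0.080 for *Gstm1* and 0.12 for *Gstp1*.

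The remaining soluble transferases were examined as a list. Of 21 genes listed, 17 had a probe and 11 were tested, and with GR24 4 rose, 1 fell and 6 did not pass the threshold. These counts are close to the 31.5% of all tested probes called higher, and below the 25.5% called lower. The median log2 fold change was 0.21. Of 3 tested theta class genes 2 rose, *Gstt1* rising by 1.497 in log2 (SE 0.097, adjusted p = 4.15e-07) and *Gstt2* by 1.24 (SE 0.079, adjusted p = 3.84e-07), while *Gstt4* had 0.21 (adjusted p = 0.411). The omega class genes *Gsto2*, with 1.03, and *Gsto1*, with 0.51, rose as well, and *Gstm5* fell by 0.33. With pinosylvin 4 rose, *Gstt1* by 0.92, *Gstt2* by 0.83, *Gstm7* by 0.43 and *Gstm5* by 0.35, and with resveratrol 3 rose, *Gstt2* by 1.00, *Gstt1* by 0.75 and *Gstm7* by 0.73, beside 8.28% and 7.99% of all tested probes. *Gstm7*, of the mu class, had -0.17 with GR24 (adjusted p = 0.203) and was lower with GR24 than with pinosylvin and resveratrol (log2 difference -0.60 and -0.90). Between pinosylvin and resveratrol 1 gene passed the threshold, *Gstm5*, higher with pinosylvin by 0.42. Of all tested probes 7.68% were called higher and 6.85% lower, and 1 of 11 higher is near that share. Among other members of the membrane family, *Ltc4s* and *Ptges* were tested and passed the threshold in no comparison.

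Genes that supply glutathione rose with GR24 in all 5 tested cases, beside 31.5% of all tested probes, with a median log2 fold change of 1.14. The reductase gene *Gsr* rose by 1.47 (SE 0.14, adjusted p = 7.89e-06), the synthetase gene *Gss* by 1.38, the rate-limiting ligase subunit gene *Gclc* by 1.14 and the cystine transporter gene *Slc7a11* by 1.02. The modifier subunit gene *Gclm* was not tested. With pinosylvin 2 of 5 rose, *Ggct* by 1.08 and *Slc7a11* by 0.45, and with resveratrol 3 of 5, *Slc7a11* by 1.26, *Gclc* by 0.85 and *Gsr* by 0.65. The shares of all tested probes called higher were 8.28% and 7.99%. *Gclc* had -0.14 with pinosylvin (adjusted p = 0.323), and pinosylvin and resveratrol differed in it by -0.99 (SE 0.085, adjusted p = 5.88e-05). In this list 3 genes were lower and 1, *Ggct*, was higher with pinosylvin than with resveratrol, beside 6.85% and 7.68% of all tested probes.

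Of the genes for the fate of conjugates, 6 of 10 tested rose with GR24 and 2 fell, with a median log2 fold change of 0.78. Of all tested probes 31.5% were called higher and 25.5% lower, and the count that fell is near that share. *Ggt1*, the cell-surface enzyme that removes the glutamyl group of conjugates, rose by 2.60 (SE 0.097, adjusted p = 7.95e-09), and the export pump genes *Abcc4* and *Abcc1* rose by 1.54 and 1.34. *Acy3* fell by 1.49 and *Ggt7* fell by 0.82. *Ggt1* was the only one of the 10 to rise with pinosylvin, by 2.10 (adjusted p = 7.24e-07), and 1 of 10 is near the 8.28% of all tested probes. With resveratrol 3 of 10 rose, *Ggt1* by 1.74, *Abcc4* by 0.56 and *Abcc5* by 0.34, beside 7.99% of all tested probes. *Ggt1* was higher with pinosylvin than with resveratrol by 0.36 (SE 0.097, adjusted p = 0.0316), while *Abcc4* was lower by 0.46. These calls, 1 higher and 1 lower of 10, are near the 7.68% and 6.85% of all tested probes. In its order of the stilbenes *Ggt1* stood opposite to *Gsta1*.

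Genes of the Nrf2 system and its usual reporters rose with GR24 in 9 of 10 tested cases, beside 31.5% of all tested probes, with a median log2 fold change of 1.42. *Hmox1* rose by 4.08 and *Nqo1* by 3.00, and *Mafk* did not pass the threshold at 0.13. With pinosylvin 4 rose, *Hmox1* by 0.86, *Srxn1* by 0.44, *Nqo1* by 0.38 and *Keap1* by 0.27, and with resveratrol 7 rose, led by *Nqo1* with 2.08 and *Srxn1* with 1.93. Of all tested probes 8.28% were called higher with pinosylvin and 7.99% with resveratrol. Pinosylvin and resveratrol differed in 6 of the 10, each lower with pinosylvin, beside 6.85% of all tested probes, most in *Nqo1* by -1.70 (SE 0.069, adjusted p = 2.6e-06). *Gsta1* and *Nqo1* thus ranked the stilbenes alike but by unequal amounts, with differences of -0.56 and -1.70 in log2.

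The genes with the pattern most like that of *Gsta1* over the 12 arrays, among 9808 named genes, were *Lgals2* (Pearson's r = 0.993), *Tspyl2* (0.990), *Gstt2* (0.986), *Cxcl1* (0.985) and *Ccl2* (0.984). *Lgals2* encodes a galectin and *Cxcl1* and *Ccl2* encode chemokines. Those most like *Mgst3* were *Tuba1c* (0.995), *Cenpf* (0.994), *Ccnb2* (0.994), *Kif23* (0.994) and *Cdk1* (0.994), of which the last 4 act in mitosis. *Cdk1* had log2 fold changes of -2.81 with GR24, -1.39 with pinosylvin and -0.81 with resveratrol, in the same order as *Mgst3* with -1.49, -0.75 and -0.49. The 12 points fall into 4 groups, and these correlations describe the group means.

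Promoter windows from RefSeq on GRCr8, 250 bases before to 50 after a transcript start, were found for 9 of the 10 genes, and *Mgst2* had none. They were searched on both strands for TGACNNNGC, the core of the antioxidant response element that Nrf2 binds. It occurred in 3 of the 9 windows, those of *Gsta1*, *Gsta2* and *Gstp1*, and in 12.1% of all 33469 windows of this length. The 3 are shown because these genes rose with GR24 and hold the letters, and *Gsta4* and *Gsta5* are shown because these neighbours moved apart and hold none. Of the genes with a window not shown, *Gstm1* and *Mgst1* rose with GR24 and *Gstm2* and *Mgst3* fell. Their windows hold none either, so the letters were absent from genes that rose as well as from genes that fell. Capitals mark the match. In *Gsta1* it lies on the strand of the gene at bases 31 to 39 after the start, in *Gsta2* on the other strand at bases 37 to 45 after the start, and in *Gstp1* on the strand of the gene at -61 to -53. The *Gstp1* match also holds TGACTCA, a site of AP-1 factors, which was in 4.63% of all windows. A match is a description of the letters, and binding was not measured.
*Gsta1* (GRCr8, chr9:31216483-31216782, minus strand): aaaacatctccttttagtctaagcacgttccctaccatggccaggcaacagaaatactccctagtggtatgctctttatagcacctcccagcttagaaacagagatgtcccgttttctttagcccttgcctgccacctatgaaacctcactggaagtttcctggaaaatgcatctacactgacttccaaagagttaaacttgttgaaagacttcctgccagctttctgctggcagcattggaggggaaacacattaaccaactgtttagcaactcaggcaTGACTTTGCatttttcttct
*Gsta2* (GRCr8, chr8:88077043-88077342, minus strand): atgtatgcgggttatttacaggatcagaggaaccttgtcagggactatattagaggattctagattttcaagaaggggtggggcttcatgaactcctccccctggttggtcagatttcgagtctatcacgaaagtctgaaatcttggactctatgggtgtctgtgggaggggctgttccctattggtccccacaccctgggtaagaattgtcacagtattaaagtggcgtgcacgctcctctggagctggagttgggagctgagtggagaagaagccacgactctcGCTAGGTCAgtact
*Gstp1* (GRCr8, chr1:210769656-210769955, minus strand): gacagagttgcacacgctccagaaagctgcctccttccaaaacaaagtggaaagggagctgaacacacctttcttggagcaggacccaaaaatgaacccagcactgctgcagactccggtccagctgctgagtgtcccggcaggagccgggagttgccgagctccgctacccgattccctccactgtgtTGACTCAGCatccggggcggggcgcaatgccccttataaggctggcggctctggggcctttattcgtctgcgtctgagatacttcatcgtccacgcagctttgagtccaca
*Gsta4* (GRCr8, chr8:87947015-87947314, plus strand): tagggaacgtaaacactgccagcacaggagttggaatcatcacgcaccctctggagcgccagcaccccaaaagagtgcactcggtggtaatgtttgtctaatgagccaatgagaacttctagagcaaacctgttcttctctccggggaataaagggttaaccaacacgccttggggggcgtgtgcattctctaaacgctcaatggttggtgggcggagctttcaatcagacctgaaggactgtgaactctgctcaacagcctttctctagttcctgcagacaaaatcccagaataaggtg
*Gsta5* (GRCr8, chr8:87988104-87988403, plus strand): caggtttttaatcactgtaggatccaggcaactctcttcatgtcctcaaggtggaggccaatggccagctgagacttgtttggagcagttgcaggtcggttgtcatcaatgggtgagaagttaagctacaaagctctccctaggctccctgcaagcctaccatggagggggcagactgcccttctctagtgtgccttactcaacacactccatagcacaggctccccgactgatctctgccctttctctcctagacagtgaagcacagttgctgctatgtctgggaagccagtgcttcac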

How the data were processed

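RNA of 12 cultures was measured on 12 Agilent arrays of 1 colour. Per the file headers the values are processed signal intensity from Agilent Feature Extraction 12.0.0.7, with background subtracted within the array. The authors deposited a further table of log2 values normalized between arrays, used here as an alternative. Processed signals were taken to log2, spots marked as outliers were left out, the spots of a probe were averaged, and each array was centred on its 75th percentile. Of 45598 probes, 24279 were tested, those with a group in which all 3 arrays were well above background.

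Groups were compared in 6 contrasts with limma 3.58.1 in R 4.3.3 (lmFit and eBayes, all 12 arrays, 1 mean per group), with Benjamini-Hochberg adjustment over all tested probes of a contrast and a threshold of 0.05. RefSeq accessions named 21102 probes through a gene table of GRCr8. Named are the 10 members, the genes of the other lists, and for *Gsta1* and *Mgst3* the 5 genes with the highest Pearson's r. Members and lists were chosen with earlier results of these data known.

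After group means were removed, arrays with the same replicate number were correlated above 0.1 in 18 of 18 pairs (r = 0.191 to 0.744). Replicates 1 and 2 were on slide 1 and replicate 3 on slide 2. On slide 1 pairs of different number (0.222 to 0.475) were as correlated as pairs of the same number (0.191 to 0.470), and pairs between slides were at -0.663 to -0.324, so replicate number and slide cannot be told apart for replicate 3. A slide block gave 4031 probes higher and 3043 lower for pinosylvin against control, and the replicate block gave 3954 and 2993. The alternatives were other normalizations, filters, scaling sets, samples, blocks, adjustments and variance models, and each array left out in turn. Normexp used the median spot and background signals with an offset of 50. The replicate block with quantile normalization was chosen after seeing the data. Figures were drawn with matplotlib 3.10.9 in Python 3.11.15.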

Additional observations from a re-analysis of the deposited data

How the results depend on the processing

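Calls of the 10 genes were recomputed under 28 alternatives. All calls were kept, in the same direction, for GR24 against control (279 values), pinosylvin (279) and resveratrol (279), for resveratrol against control (195) and for pinosylvin against resveratrol (167). *Gsta2* has no value when a probe must be well above background on each of the 12 arrays.

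For pinosylvin against control 183 of 195 values kept the call, 12 lost it, and 5 of 7 called genes kept it throughout. The number called lower was 1 with normexp and the 75th percentile, normexp and quantile normalization, the deposited table, dim probes kept, probes limited to those well above background on each of the 12 arrays, and only the 6 arrays compared. With arrays left out it ranged from 1 to 2. In each setting with 1 called lower, *Gsta2* was the gene that dropped out. The filter on all 12 arrays removed it, and in the other settings its call was lost (adjusted p = 0.0559 to 0.164). Why its call was lost there was not tested.

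*Gsta4* with pinosylvin against control was called in 10 alternatives (adjusted p = 0.0133 to 0.0492), and *Mgst3* with pinosylvin against resveratrol in 7 (0.0221 to 0.0492). The replicate block changed the calls of these 2 genes and of no other of the 10.

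Reversed values were near 0 and not called. *Gstm1* was -0.0019 with pinosylvin in the deposited table, and its difference between pinosylvin and resveratrol was 0.0021 as a mean of all probes. With arrays left out, *Gstm1* ranged from -0.015 to 0.11 with pinosylvin, from -0.0021 to 0.13 with resveratrol and from -0.098 to 0.058 between them, and *Gstm2* from -0.032 to 0.16 with pinosylvin. The cause was not tested.

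With dim probes kept, the median log2 fold change over all 45598 probes was 0.12 for GR24, 0.11 for pinosylvin and -0.13 for resveratrol against control, -0.0078 and 0.24 for GR24 against pinosylvin and resveratrol, and 0.16 for pinosylvin against resveratrol. Leaving out 1 array could lower the number of all tested probes called. Without pinosylvin replicate 2, 1236 probes were higher with pinosylvin than in the control, in place of 2010. In that setting 1086 were higher with pinosylvin than with resveratrol, in place of 1864. Without resveratrol replicate 1, 1192 were higher with resveratrol than in the control, in place of 1941. Signal over background limits *Gsta2* most.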
